A study of Mus musculus with 8 samples.

Results

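The genes described here control entry into the cell cycle in G1: the D-type cyclins Ccnd1, Ccnd2 and Ccnd3, their kinases Cdk4 and Cdk6, the E-type cyclins Ccne1 and Ccne2, and the inhibitor Cdkn1b (p27). Members were taken by name alone, as all probes annotated to these 8 genes, which gave 16 probes of 41174 on the array. All 16 passed the filter on dim probes, alongside 33330 probes (22220 genes) in all. Liver RNA of ICR scid mice aged 8 wk, a strain that lacks mature B and T cells, was hybridised in pairs of pools to 8 two-colour Agilent arrays. The pairs were untreated males over untreated females (10 mice each), females given Adeno-Cux2 over females given Adeno-CMV and killed at day 5 (8 and 7 mice), males given the same viruses at day 5 (12 and 13 mice) and males at day 3 (11 mice each). Adeno-Cux2 is an adenovirus carrying the transcription factor Cux2, and Adeno-CMV is its control virus. Each pair had 2 arrays with separate pools of 3 to 7 mice and reversed dyes, so n is 2 throughout and the error is that between pools, not between mice. One slide carried the arrays of untreated mice and of males at day 5, and a second slide carried the rest.

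D-type cyclins accumulate when growth signals reach a resting cell and switch on Cdk4 and Cdk6, which phosphorylate the retinoblastoma protein. That frees E2F factors, which drive the cyclin E genes and the genes of DNA replication, and cyclin E then acts through Cdk2 to start S phase. Cdkn1b binds cyclin E and Cdk2 and holds the kinase inactive. Most hepatocytes of the adult liver rest outside the cycle, and cyclin D1 is the D-type cyclin best known for its rise when they enter it, as after partial hepatectomy.

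The values are log2 ratios of the pools after local background correction and loess normalisation, given with the standard error of a limma model, and a probe was called at a Benjamini-Hochberg adjusted p under 0.05 over all probes. Signals are normalised brightness per pool and are compared within a probe only, except where they are summed over a list of cell type markers. Across probes, the 2 arrays of a comparison correlated at r = 0.596 for the untreated arrays, 0.681 for females at day 5, 0.865 for males at day 5 and 0.890 for males at day 3. Spots well above background made up 68.2% to 76.7% of spots in green and 71.7% to 80.1% in red, and no member probe was saturated. Cux2, by the brighter of its 2 probes, stood at 0.60 ± 0.09 and 0.49 ± 0.09 in Adeno-Cux2 over Adeno-CMV males at day 5 and day 3, but at −0.61 ± 0.09 in the female pools labelled Adeno-Cux2. The other Cux2 probe gave 0.31 ± 0.07, 0.43 ± 0.07 and −0.33 ± 0.07 in the same order, and all 6 values were called. In untreated males over females the brighter probe stood at −1.88 ± 0.09 and the other at −1.31 ± 0.07, both called. Untreated females thus had more Cux2 RNA than untreated males, and the part of this in the female virus ratio was not tested. The description of the female arrays also names males in its statement of purpose, while their title and sample text name females. Female directions are therefore given as labelled throughout: with those labels turned, every female ratio would keep its size and change sign.

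Of the 16 member probes, 7 were called in females at day 5 (3 higher and 4 lower), 6 in males at day 5 (2 higher and 4 lower) and 12 in males at day 3, all of them higher. Between untreated males and females 1 was higher and 1 lower. Of all probes, 17.4% were called in females at day 5 (11.2% higher, 6.2% lower), 16.8% in day 5 males (12% higher, 4.79% lower) and 42.9% in day 3 males (22.8% higher, 20.1% lower). The untreated comparison called 9.78% (4.71% higher, 5.07% lower), and the 2 member probes there lie near that background.  Ccnd1 was called in every comparison, Ccne1 by its brighter probe in every comparison, and Ccne2 in the 3 virus comparisons. Leaving out an array lowered some of these counts. In the cases given here the share of all probes called fell too, except without the second untreated array, where it rose. The count in day 5 males was 1 without either of its own arrays, where 4.51% and 4.14% of all probes were called, and that in day 3 males was 6 without its replicate 2, where 23% were called. The untreated count was 1 without the first untreated array (2.06% of all probes called), without the second (16.3%) and without either array of day 5 males (4.87%).

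**Figure D1:**
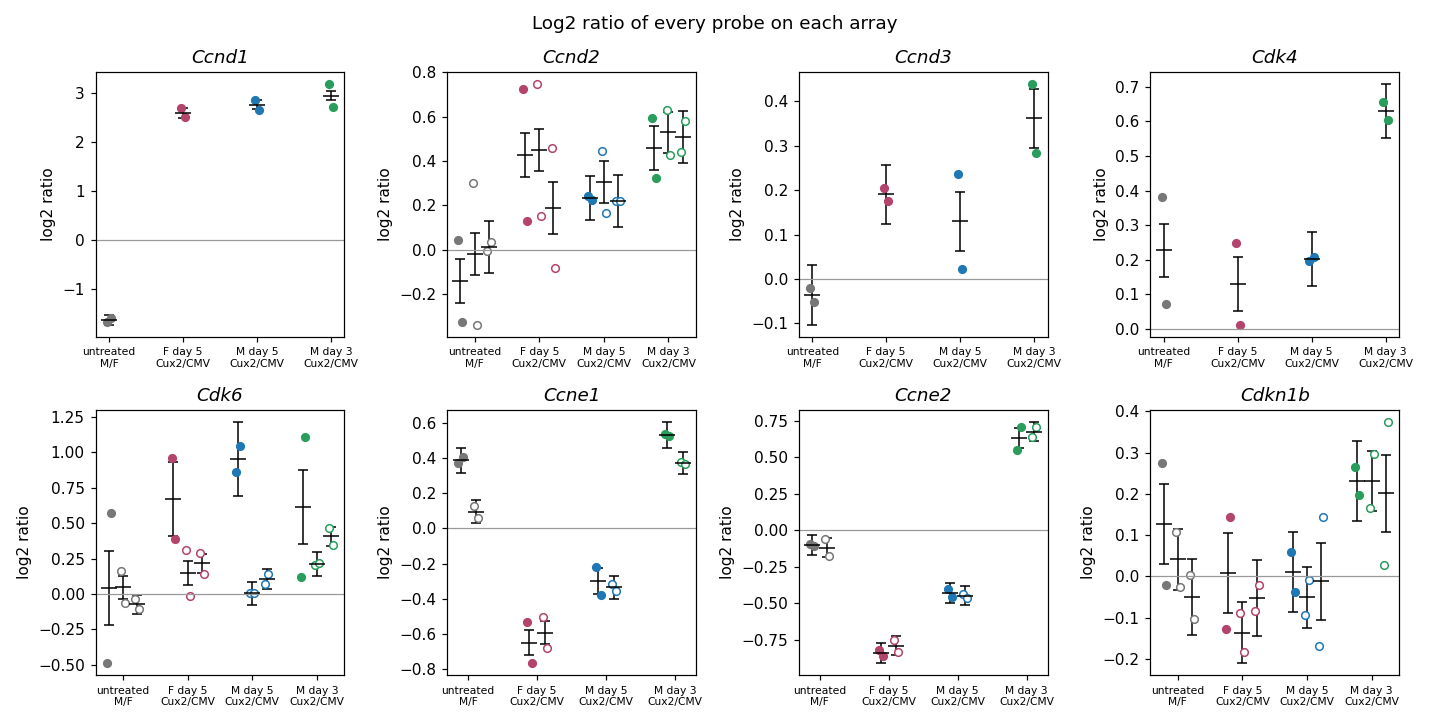
Log2 ratio of each member probe on each array, 1 panel per gene with its own vertical scale; circles are arrays (filled for the brightest probe of the gene), and black bars the mean ± standard error of the model (n = 2 arrays). Ccnd1 lies near or above 2.5 in the 3 virus comparisons and below 0 in untreated males over females, while both probes of Ccne1 and of Ccne2 lie below 0 at day 5 and above 0 at day 3.

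Ccnd1 had the largest ratios of the 8 genes in the 4 comparisons made on the arrays. Its probe, at chr7:144739658-144739717 on the minus strand of mm8, read 10733 and 9699 in the female pools labelled Adeno-Cux2 at day 5, against 1669.9 and 1716 in the Adeno-CMV females. Day 5 males read 6400.0 and 6259 with Adeno-Cux2, against 882 and 993 with Adeno-CMV. Day 3 males read 7834 and 7787 with Adeno-Cux2, against 863 and 1191 with Adeno-CMV. The pools labelled Adeno-Cux2 were thus above the Adeno-CMV pools on every array, with no overlap. The model put Ccnd1 6.03-fold higher in day 5 females as labelled (log2 2.59 ± 0.10, adjusted p = 0.00013), 6.76-fold in males at day 5 (2.76 ± 0.10, adjusted p = 5.46e-05) and 7.70-fold in males at day 3 (2.95 ± 0.10, adjusted p = 1.06e-05).

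Ccnd1 also differed between the untreated sexes. Ccnd1 read 858 and 879 in untreated males, against 2758 and 2655 in untreated females, which is 3.12-fold lower in males (log2 −1.64 ± 0.10, adjusted p = 0.000272). The probe was printed in 10 spots on each array, and on the first untreated array those spots spanned −1.78 to −1.54. Ccnd1 kept its call in each of the 4 comparisons under all 22 alternative settings tried.

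The Ccnd1 ratio was not found to differ between the days in males, nor between the sexes at day 5 with the female labels as given. Females at day 5 minus males at day 5 gave −0.17 (95% interval −0.49 to 0.16, adjusted p = 0.806), and males at day 5 minus males at day 3 gave −0.19 (−0.51 to 0.14, adjusted p = 0.441). With the female labels turned, the difference between the sexes would be −5.35 ± 0.14 (adjusted p = 9.32e-06), so the comparison of the sexes rests on those labels. Each of these differences runs across the 2 slides, so slide and difference cannot be told apart. Ordered by mean signal, the 8 groups ran, as labelled, from Adeno-Cux2 females at day 5 through Adeno-Cux2 males at day 3, Adeno-Cux2 males at day 5, untreated females, Adeno-CMV females at day 5, Adeno-CMV males at day 3 and Adeno-CMV males at day 5 to untreated males. With the female labels turned, the 2 female virus groups would exchange places in that order. Only the Adeno-CMV males of day 3 and day 5 overlapped among neighbours in that order. Groups that stand on different arrays and slides are ordered here as a description.

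The other D-type cyclins moved far less. Ccnd2, read by 3 probes along its transcript on chromosome 6, stood by its brightest probe at 717 and 596 in the female pools labelled Adeno-Cux2, against 434 and 545 in Adeno-CMV females, and was called (0.43 ± 0.10, adjusted p = 0.0271). That call was kept in 15 of 22 settings, and the female arrays gave 0.72 and 0.13, so it rests mainly on 1 array. A dimmer probe was called too (0.45 ± 0.09, adjusted p = 0.0186), in 13 of 21 settings. The dimmest was not called in females (0.19 ± 0.12, adjusted p = 0.341), with 0.46 and −0.08 on the arrays. None of the 3 was called in day 5 males, with the brightest at 0.23 ± 0.10 (adjusted p = 0.174). The same probe in day 3 males read 657 and 597 with Adeno-Cux2, against 435 and 477 with Adeno-CMV, and all 3 probes were called there, at 0.46 ± 0.10, 0.53 ± 0.09 and 0.51 ± 0.12 (adjusted p = 0.00873, 0.00375 and 0.0116).

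Ccnd3, on chromosome 17, was called only in males at day 3. Its log2 ratio was 0.19 ± 0.07 in females at day 5 (adjusted p = 0.103), 0.13 ± 0.07 in males at day 5 (adjusted p = 0.259) and −0.04 ± 0.07 in untreated males over females (adjusted p = 0.785). Males at day 3 read 3260.3 and 3317 with Adeno-Cux2, against 2404 and 2724 with Adeno-CMV, a log2 ratio of 0.36 ± 0.07 (adjusted p = 0.00458). The day 5 minus day 3 difference in males was −0.23 (95% interval −0.46 to −0.01, adjusted p = 0.169), so a difference between the days was not shown. All 3 D-type cyclins were therefore higher with Adeno-Cux2 at day 3, by 1.29-fold to 7.70-fold at their brightest probes.

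Cdk4, the kinase partner of the D-type cyclins on chromosome 10, was called higher with Adeno-Cux2 only in males at day 3. At day 5 it read 3602 and 3661 with Adeno-Cux2 in males, against 3143 and 3169.5 with Adeno-CMV (0.20 ± 0.08, adjusted p = 0.136), and the female ratio was 0.13 ± 0.08 (adjusted p = 0.324). At day 3 it read 6189 and 5544 with Adeno-Cux2, against 3924 and 3647 with Adeno-CMV, with no overlap (0.63 ± 0.08, 1.55-fold, adjusted p = 0.000741), and kept this call in all 22 settings. The male difference of day 5 minus day 3 was −0.43 (95% interval −0.69 to −0.17, adjusted p = 0.0505), just outside the threshold.

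Cdk6, the second such kinase, gave different readings from its 3 probes on chromosome 5. The brightest, designed on a cDNA, read 1269.8 and 1438 in Adeno-Cux2 males at day 5, against 699.6 and 698 in Adeno-CMV males (0.95 ± 0.26, adjusted p = 0.0499), a call kept in 9 of 22 settings. The other 2 Cdk6 probes gave 0.11 ± 0.07 and 0.01 ± 0.08 in the same pools, so the probes disagree. The brightest probe also differed between arrays of 1 comparison, at −0.49 and 0.57 for untreated males over females. In males at day 3 a dimmer probe, annotated across bases 3479226 to 3521510, was called higher (0.41 ± 0.07, adjusted p = 0.00294). The brightest stood at 0.61 ± 0.26 (adjusted p = 0.101) and the dimmest at 0.21 ± 0.08 (adjusted p = 0.076), and neither was called. In females at day 5 the 3 probes, brightest first, gave 0.67 ± 0.26, 0.22 ± 0.07 and 0.15 ± 0.08, and none was called.

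Upstream sequences of Ccne1 and Cdk4 are shown here because Ccne1 changed direction between the days and Cdk4 was called at day 3 alone. Both are the 250 bases before the annotated start in RefSeq (GRCm38.p6), 5′ to 3′, at chr7:38107491-38107740 on the minus strand and chr10:127063285-127063534 on the plus strand. Capitals mark the E-box CACGTG and the GC box GGGCGG on either strand.
Ccne1: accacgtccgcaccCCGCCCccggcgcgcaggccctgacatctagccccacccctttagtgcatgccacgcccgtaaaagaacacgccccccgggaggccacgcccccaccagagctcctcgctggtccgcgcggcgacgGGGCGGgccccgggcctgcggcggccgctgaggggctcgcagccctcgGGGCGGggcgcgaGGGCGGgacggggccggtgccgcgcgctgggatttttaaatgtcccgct
Cdk4: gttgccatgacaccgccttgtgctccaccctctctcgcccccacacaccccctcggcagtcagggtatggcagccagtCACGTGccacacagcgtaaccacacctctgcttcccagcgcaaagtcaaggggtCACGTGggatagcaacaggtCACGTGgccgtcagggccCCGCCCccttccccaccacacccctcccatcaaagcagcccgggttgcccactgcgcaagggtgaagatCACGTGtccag
The Cdk4 window holds 4 E-boxes and 1 GC box, and the Ccne1 window 4 GC boxes and no E-box. Of 32851 windows of this length, 6.02% hold an E-box and 32.7% a GC box. Neither window holds the E2F-type letters TTTCCCGC, TTTGGCGC, TTTCGCGC or TTTGCCGC (1.86% of windows hold any of them) or the Cux-type ATCGAT (0.728%), on either strand. These are matches of letters only.

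In males, cyclin E was lower with Adeno-Cux2 at day 5 and higher at day 3, and it was lower at day 5 in the female pools labelled Adeno-Cux2. The brighter Ccne1 probe, on chromosome 7, read 10017 and 10386 in the female pools labelled Adeno-Cux2, against 14494 and 17643 in Adeno-CMV females. Males at day 5 read 6784 and 5240.2 with Adeno-Cux2, against 7890.1 and 6822 with Adeno-CMV. Males at day 3 read 16297 and 17291 with Adeno-Cux2, against 11231 and 12005 with Adeno-CMV. The groups did not overlap in any of these comparisons.

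In the model the Ccne1 ratio was −0.65 ± 0.07 in females at day 5 (adjusted p = 0.00171), −0.30 ± 0.07 in males at day 5 (adjusted p = 0.0324) and 0.53 ± 0.07 in males at day 3 (adjusted p = 0.00117). A dimmer Ccne1 probe, which the files place at the same coordinates, gave −0.59, −0.33 and 0.37, and each was called (adjusted p = 0.00154, 0.0132 and 0.00332). The brighter probe kept its call in 13 of 22 settings in males at day 5 and in all 22 in females and at day 3. Untreated males stood 0.39 ± 0.07 above females by the brighter probe (439.9 and 516 in males, against 340.4 and 390.2 in females, adjusted p = 0.022, called in 13 of 22 settings). By the dimmer probe the same ratio was 0.10 (adjusted p = 0.392), so the 2 probes differ on a sex difference.

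Ccne2, on chromosome 4, followed the same course. Its brighter probe read 2216 and 1813 in the female pools labelled Adeno-Cux2, against 3905 and 3298 in Adeno-CMV females (−0.84 ± 0.07, 1.79-fold lower, adjusted p = 0.00059). In males at day 5 it read 1797 and 1461 with Adeno-Cux2, against 2376 and 2009.6 with Adeno-CMV (−0.43 ± 0.07, adjusted p = 0.0058). In males at day 3 it read 3207 and 3099 with Adeno-Cux2, against 2190.0 and 1899 with Adeno-CMV (0.63 ± 0.07, 1.55-fold higher, adjusted p = 0.000414). The other Ccne2 probe, some bases downstream, gave −0.79, −0.45 and 0.67 in these comparisons. Untreated males and females were not found to differ, at −0.10 ± 0.07 (adjusted p = 0.386).

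The change of direction between the days in males was tested directly. The Adeno-Cux2 ratio at day 5 minus that at day 3 was −0.83 ± 0.10 for Ccne1 (adjusted p = 0.00574) and −1.06 ± 0.10 for Ccne2 (adjusted p = 0.00291), and the further probes gave −0.71 and −1.12 (adjusted p = 0.00624 and 0.00228). The 4 calls became 2 without the first day 5 array, 0 without the second and 2 without the second day 3 array, where 0.855%, 0.405% and 2.42% of all probes were called. These 4 cyclin E probes were the only member probes called in that difference, in which 12.1% of all probes were called, 7.25% higher and 4.81% lower. Between females and males at day 5, limma called no member probe, against 0.201% of all probes (0.054% higher, 0.147% lower), and 4 of 16 member probes had an unadjusted p under 0.05, against 10.1% of all probes. With the female labels turned, 10 member probes would be called in that contrast (4 higher, 6 lower), against 27.8% of all probes. The female minus male difference was −0.35 (95% interval −0.59 to −0.11, adjusted p = 0.280) for Ccne1 and −0.41 (−0.64 to −0.18, adjusted p = 0.179) for Ccne2. Slide and difference cannot be told apart in either contrast.

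**Figure D2:**
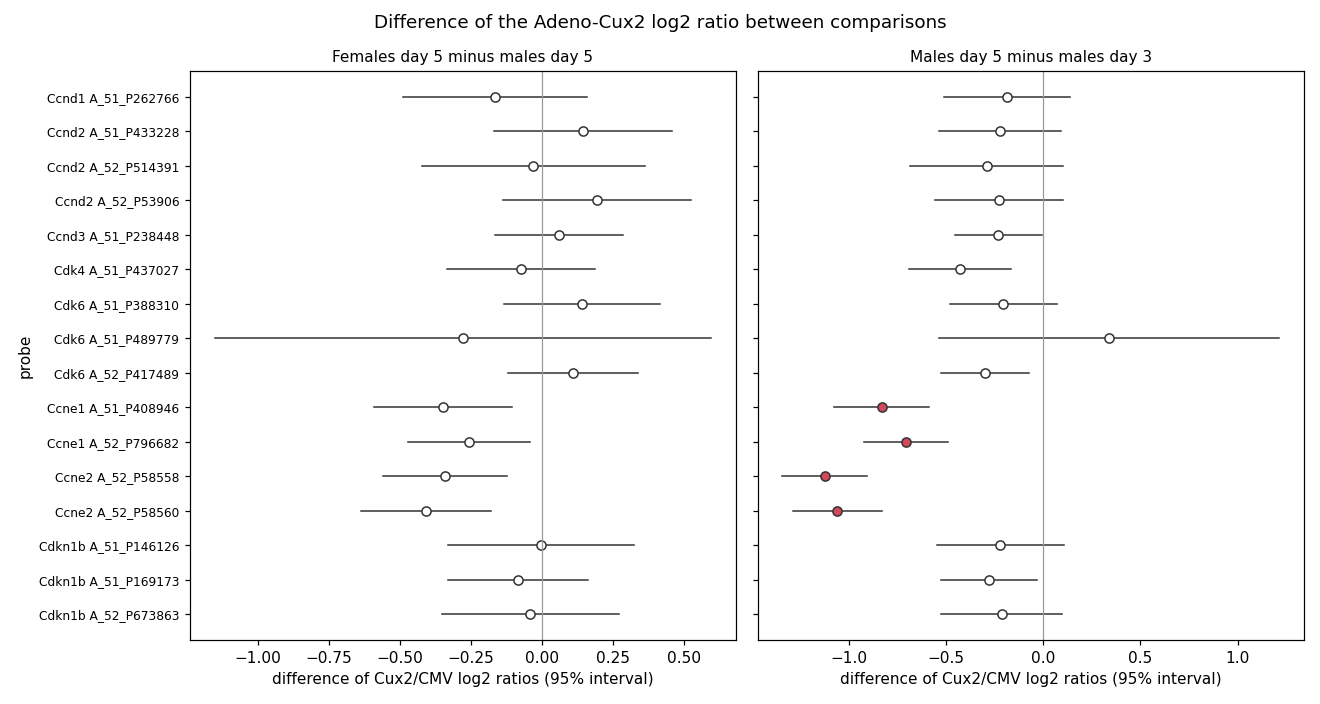
Difference of the Adeno-Cux2 over Adeno-CMV log2 ratio for each member probe, females minus males at day 5 (left) and males at day 5 minus males at day 3 (right); points are estimates, lines 95% intervals, and filled points were called. The 4 cyclin E probes stand apart in the right panel, from −1.12 to −0.71, and the wide interval belongs to the brightest Cdk6 probe.

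Beside the ratios, the cyclin E signal of every virus-treated pool stood far above that of every untreated pool. Ccne1 read 5240.2 to 17643 in the 12 virus-treated pools, against 340.4 to 516 in the 4 untreated pools, and Ccne2 read 1461 to 3905, against 225 to 272. The study paired no virus-treated pool with an untreated one, so a comparison was added after these values were seen. It set Adeno-CMV males at day 5 against untreated males, which share a slide but not an array. Ccne1 was 15.4-fold higher in the Adeno-CMV males (log2 3.94 ± 0.15, adjusted p = 6.22e-05) and Ccne2 9.17-fold higher (3.20 ± 0.08, adjusted p = 1.71e-05). The other probes of the 2 genes gave 2.03 ± 0.14 and 3.30 ± 0.22, so the 2 Ccne1 probes agree in direction but not in size. Infection, injection and time since treatment cannot be told apart there, since the labels name no mock-treated mice.

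Outside cyclin E, 1 member probe was called in that comparison, a Ccnd2 probe at −0.61 ± 0.11 (adjusted p = 0.0174). That makes 5 of 16 member probes, against 15.8% of all probes (6.32% higher, 9.51% lower). Ccnd1 was not called, with 882 and 993 in Adeno-CMV males at day 5 against 858 and 879 in untreated males (0.11 ± 0.13, adjusted p = 0.643), and neither were Ccnd3, Cdk4, Cdk6 or Cdkn1b. Females were not tested, as their virus and untreated pools lie on different slides. The Ccnd1 signal of the female pools labelled Adeno-CMV was 1669.9 and 1716, against 2758 and 2655 in untreated females.

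**Figure D3:**
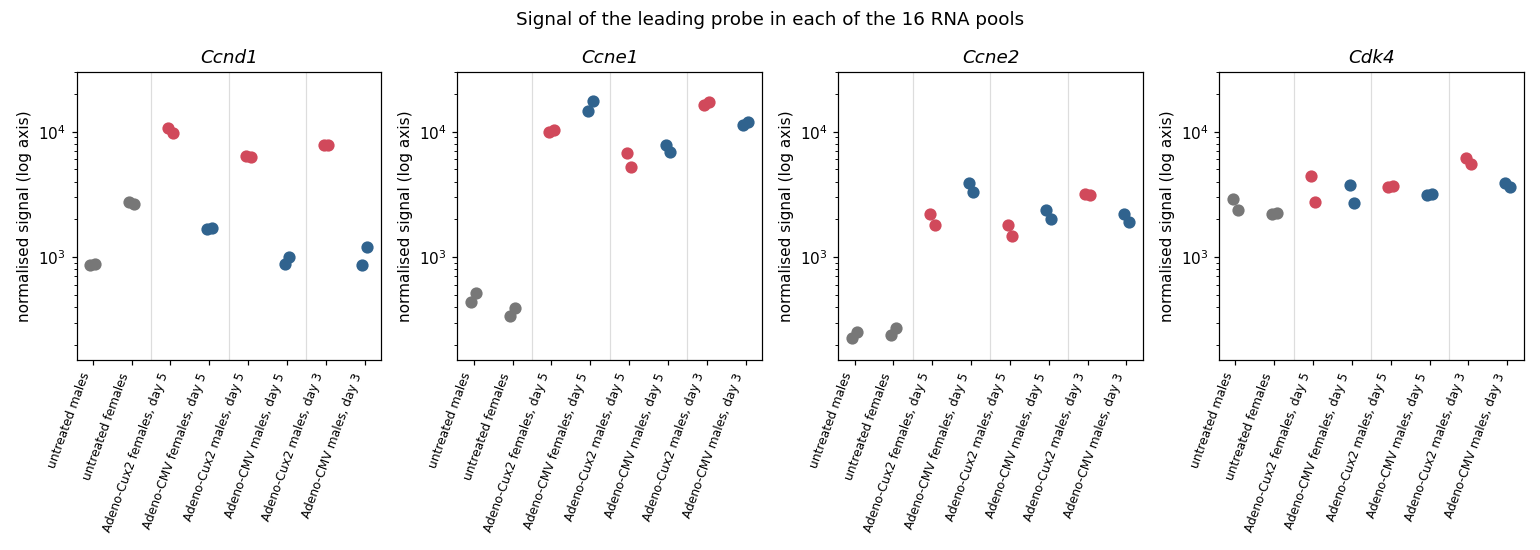
Normalised signal (log axis) of the brightest probe of Ccnd1, Ccne1, Ccne2 and Cdk4 in each of the 16 RNA pools; each point is a pool, red for Adeno-Cux2, blue for Adeno-CMV and grey for untreated mice. Ccnd1 is highest in the 6 pools labelled Adeno-Cux2, while Ccne1 and Ccne2 are high in all 12 virus-treated pools.

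Most of the listed S phase genes and CDK inhibitors were also higher in Adeno-CMV males than in untreated males. Of 22 S phase genes known as E2F targets, 19 were higher and none lower (median 2.13), against 6.89% and 10.2% of all genes and a median of −0.04. They included Mcm6 of the replicative helicase (3.83 ± 0.18) and Rrm2, which makes deoxynucleotides (3.03 ± 0.10), whereas Tk1, thymidine kinase, stood at 0.01 ± 0.13 and was not called. The CDK inhibitors Cdkn1a (3.75 ± 0.25), Cdkn2c (1.71 ± 0.10), Cdkn1c (1.44 ± 0.09) and Cdkn2d (0.64 ± 0.15) were higher too, and Cdkn2b was not called (−0.15 ± 0.16). Of the retinoblastoma and E2F family 5 of 13 were higher and 1 lower, and of the genes around CDK2, its activation and G1 turnover 6 of 14 were higher and 1 lower. Of the 22 genes listed as mitogen signals 1 was higher, Foxm1 (2.50 ± 0.10), and 2 lower, Cyr61 (−1.33 ± 0.23) and Junb (−0.73 ± 0.12). The mitogen counts lie near the shares of all genes.

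Cdkn1b, which encodes p27, was called by 1 of its 3 probes in 1 comparison. Its brightest probe, on chromosome 6, read 482 and 479 in Adeno-Cux2 males at day 3, against 402 and 417 in Adeno-CMV males, and was not called (0.23 ± 0.10, adjusted p = 0.0996). A probe printed in 10 spots was called there at the same size (0.23 ± 0.07, adjusted p = 0.0408), but in only 8 of 21 settings, and the third probe gave 0.20 ± 0.09 (adjusted p = 0.126). In the other comparisons the 3 probes ranged from −0.14 to 0.13 and none was called.

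Of 5 other measured CDK inhibitors, 3 were higher and none lower in each of the virus comparisons. Called genes made up 12.7% higher and 6.26% lower of all genes in day 5 females, 13.8% and 4.83% in day 5 males, and 23.9% and 20.4% in males at day 3. Cdkn2b, an inhibitor of Cdk4 and Cdk6, was 1.24 ± 0.22 higher in females at day 5, 1.48 ± 0.22 higher in males at day 5 and 2.29 ± 0.22 higher in males at day 3. Cdkn1a (p21) was higher by 0.35 ± 0.08, 0.45 ± 0.08 and 1.30 ± 0.08 in the same order, and Cdkn1c (p57) by 1.03 ± 0.07 in males at day 5 and 1.17 ± 0.07 at day 3. In untreated males over females 2 of 5 were lower, Cdkn1a at −1.14 ± 0.08 and Cdkn1c at −0.41 ± 0.07, against 4.84% of all genes higher and 6.04% lower. Cdkn2a was not above background on any array.

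Downstream of the kinases, most S phase genes were called at day 3 and few at day 5. Of the 22 listed, 1 was higher and 3 lower in day 5 females as labelled (median −0.17), 1 higher and 1 lower in day 5 males (median 0.06), and 17 higher and 1 lower in day 3 males (median 0.60). At day 3, Rrm2 was higher by 1.15 ± 0.10, Uhrf1, which maintains DNA methylation, by 1.15 ± 0.08 and Orc1 of the origin recognition complex by 0.99 ± 0.07, while Mcm10 stood at −1.53 ± 0.11. In females at day 5, Chaf1b, Pcna and Cdc45 were lower, at −0.58 ± 0.07, −0.53 ± 0.07 and −0.26 ± 0.07, and Rrm2 was higher by 0.44 ± 0.10. Untreated males had 1 higher, Mcm10 (1.34 ± 0.11), and 2 lower (median −0.17). Medians over all genes lay within 0.01 of 0. Shares of all genes called higher and lower were 12.7% and 6.26% in day 5 females and 13.8% and 4.83% in day 5 males. They were 23.9% and 20.4% in day 3 males, and 4.84% and 6.04% in untreated males over females.

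Of the 13 genes of the retinoblastoma and E2F family, 2 were lower in females at day 5, 1 was lower in males at day 5, and 4 were higher and 2 lower in males at day 3. Over all genes 12.7% were higher and 6.26% lower in day 5 females. These shares were 13.8% and 4.83% in day 5 males, and 23.9% and 20.4% in day 3 males. The lower count in day 5 males and both counts in day 3 males lie near them. E2f8, a repressor of the family, was lower in all 3 virus comparisons, at −1.09 ± 0.15, −0.83 ± 0.15 and −2.19 ± 0.15. E2f7, a related repressor, stood at −0.52 ± 0.07 in females at day 5 but was higher by 0.70 ± 0.07 in males at day 3, where the activator E2f2 was higher by 0.81 ± 0.07 and Tfdp1, the partner of E2F factors, by 0.54 ± 0.07. Rbl2, a relative of the retinoblastoma protein, was at −1.15 ± 0.07 at day 3. Rbl1 and E2f5 were lower in untreated males, at −0.39 ± 0.07 and −0.38 ± 0.08, where 6.04% of all genes were lower.

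Of 14 genes around CDK2, its activation and G1 turnover, 2 were higher and 1 lower in females at day 5. None was called in males at day 5, and 6 were higher in males at day 3. Over all genes 12.7% were higher and 6.26% lower in day 5 females, which is near the female counts. These shares were 13.8% and 4.83% in day 5 males, and 23.9% and 20.4% in day 3 males. The day 3 rises were led by Cks1b, a CDK-binding subunit needed for p27 breakdown (1.08 ± 0.10), Cdc25a, the phosphatase that activates CDK2 (0.97 ± 0.10), and Cks2 (0.52 ± 0.12). Females at day 5 had Cks1b and the S phase cyclin Ccna2 higher (0.43 ± 0.10 and 0.42 ± 0.09) and Cdk2 itself lower (−0.49 ± 0.08). Ccna2 was lower in untreated males (−0.47 ± 0.09), the single call of 14 in that comparison. There 4.84% of all genes were higher and 6.04% lower.

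Among 22 mitogen and growth signal genes, 2 were higher and 2 lower in females at day 5. In males 9 were higher and 2 lower at day 5, and 15 higher and 2 lower at day 3. The female counts lie near the shares of all genes there, 12.7% higher and 6.26% lower. Those shares were 13.8% and 4.83% in males at day 5, and 23.9% and 20.4% at day 3. Fos, an immediate early factor, was higher by 1.67 ± 0.38 in males at day 5 and by 2.45 ± 0.38 at day 3, and stood at −0.11 ± 0.38 in females. Hgf, the hepatocyte growth factor, was higher in all 3 virus comparisons, by 1.01 ± 0.14 in females, 1.26 ± 0.14 in males at day 5 and 1.29 ± 0.14 at day 3. The receptor Egfr was lower in all 3, at −0.43 ± 0.09, −1.31 ± 0.09 and −1.85 ± 0.09. Myc was higher in males at day 5 (1.32 ± 0.13) and in untreated males over females (1.40 ± 0.13), where 3 of 22 were higher and 1 lower. That untreated comparison called 4.84% of all genes higher and 6.04% lower.

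**Figure D4:**
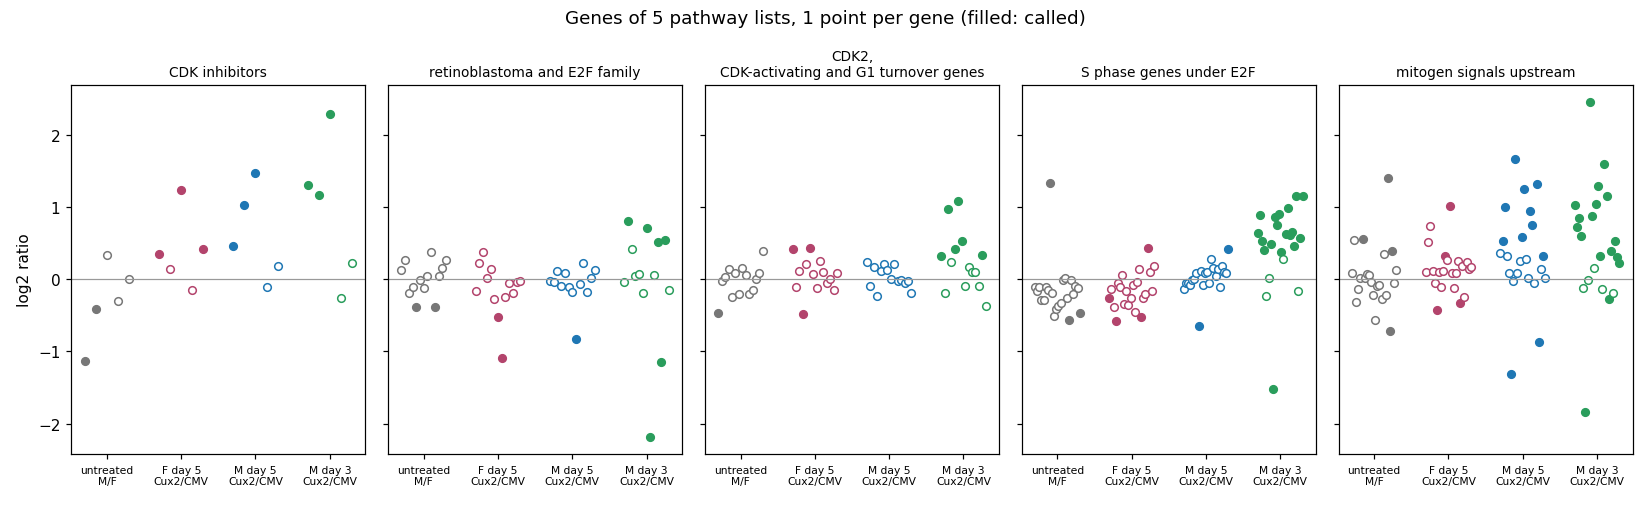
Log2 ratio of each gene of the 5 pathway lists in the 4 comparisons, by its brightest probe (1 point per gene, filled where called). The S phase genes lie near 0 in males at day 5 and mostly above 0 at day 3 (17 of 22 called higher).

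In RNA of whole liver, fewer cells of a type and less RNA per cell cannot be told apart, and markers of other cell types moved alongside Ccnd1. For comparison, 12.7% of all genes were higher and 6.26% lower in females at day 5. The same shares were 13.8% and 4.83% in males at day 5, and 23.9% and 20.4% in males at day 3. Of 9 neutrophil markers 8 were higher with Adeno-Cux2 in each virus comparison, and their summed signal was 54607 and 58462 in Adeno-Cux2 males at day 5, against 6427 and 8037 in Adeno-CMV males. It was 89238 and 110280.4 in the females labelled Adeno-Cux2, against 32000.3 and 27093 in Adeno-CMV females, and 23733 and 20658 in Adeno-Cux2 males at day 3, against 8938 and 6178 in Adeno-CMV males. Macrophage markers were higher in 9 of 12 in females at day 5, 12 of 12 in males at day 5 and 5 of 12 in males at day 3, where 3 were lower. Their sum was 109941 to 174664 in the 6 pools labelled Adeno-Cux2, against 38588 to 76564 in the 6 labelled Adeno-CMV. The brightest markers weigh most in such a sum. The median log2 ratio of the list was 0.80 in females at day 5, 1.30 in males at day 5 and 0.16 in males at day 3. The day 3 arrays gave medians of 0.34 and −0.02, so a rise of the list as a whole was not shown there. Stellate cell markers were higher in 8, 8 and 7 of 10 in the same order, with 1 lower at day 3, and cholangiocyte and progenitor markers in 6, 4 and 4 of 8, with 1 lower at day 3. The stellate sum was 80272 to 133357 in pools labelled Adeno-Cux2, against 34025 to 51528 in those labelled Adeno-CMV, and the cholangiocyte sum 59384 to 110855, against 18976 to 29035. Their part in the cyclin results was not tested.

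Endothelial markers were higher in 4, 4 and 3 of 8 (2 lower at day 3) and T and NK cell markers in 3, 7 and 6 of 12 (1 lower at day 3). B cell markers were higher in 0, 1 and 0 of 3, with the B cell kinase Blk below background on every array. The endothelial counts at day 3 lie near the shares of all genes there (23.9% higher, 20.4% lower), with a median log2 ratio of 0.03. Hepatocyte markers were present in all pools, with 6 of 12 higher in females at day 5, 5 higher in males at day 5, and 2 higher and 5 lower in males at day 3. The 2 arrays gave median log2 ratios of this list of 0.55 and 0.03 in females at day 5. In males at day 5 they gave 0.60 and 0.003. A rise of the hepatocyte list on both arrays was thus not shown at day 5. In untreated males over females, where Ccnd1 was lower, 4 of 12 macrophage, 4 of 9 neutrophil, 2 of 12 T and NK cell, 2 of 8 endothelial and 2 of 10 stellate markers were lower and none higher. The hepatocyte and the cholangiocyte lists had 1 higher each, with 2 and 1 lower, and no B cell marker was called. All genes gave 4.84% higher and 6.04% lower in that comparison. In Adeno-CMV over untreated males, where cyclin E was higher, 5 of 9 neutrophil markers and 1 of 12 macrophage markers were higher. Lower there were 6 of 12 macrophage, 6 of 8 endothelial, 3 of 10 stellate, 2 of 12 hepatocyte and 1 of 12 T and NK cell markers. No B cell or cholangiocyte marker was called. With 6.89% of all genes higher and 10.2% lower, the hepatocyte and the T and NK cell counts lie near that background.

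The members did not share a single pattern over the 8 arrays. As a description, Ccne1 and Ccne2 log2 ratios correlated at r = 0.913, Ccne2 and Cdk4 at 0.845, and Ccnd1 and Ccne1 at −0.400, over arrays that come in pairs of 1 comparison each. Among 5449 genes called in at least 2 comparisons, those most like Ccnd1 by Pearson r over the 8 arrays were Samhd1 (0.998), Dgkz (0.995), Tfec (0.995), Akr1b7 (0.995) and Ifi27l2a (0.994). Akr1b7, an aldo-keto reductase, had the closest size as well, with 2.80 in females at day 5, 3.11 in males at day 5, 3.16 in males at day 3 and −1.17 in untreated males over females.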

How the data were processed

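Liver RNA pools were compared on 8 two-colour arrays. Per the file headers, the authors scanned them with Agilent Feature Extraction (version 9.5.3.1 on the slide of untreated mice and day 5 males, 10.7.1.1 on the other slide), and the deposited intensity values are unnormalized median signals of spots and local background. LogRatio, also deposited by the authors, is log10 of red over green, background-subtracted and dye-normalized by the software, and the deposited series matrix holds the same log10 ratios with the sign turned on replicate 2. The spot flags in the deposited files are values of 0 or 1 (other).

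Background was corrected by normexp (offset 50) and log2 ratios normalized by loess in limma 3.58.1 (R 4.3.3). Control and outlier spots had weight 0, and spots of 1 probe were averaged. Pool signals were scaled between arrays by Aquantile. A probe was kept when both arrays of some comparison had it well above background in either channel, and list counts took each gene's brightest probe by mean intensity. One limma model held 4 comparisons and a dye term (3 residual degrees of freedom, prior 3.90), with Benjamini-Hochberg adjustment over 33330 probes. The added comparison of Adeno-CMV with untreated males used 1 channel per array in a model of 4 groups and dye, and both models were tested on simulated data.

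Members and lists were chosen with earlier results of these data known. The lists, written from textbook knowledge, are CDK inhibitors, the retinoblastoma and E2F family, genes of CDK2 and G1 turnover, S phase genes, mitogen genes and markers of 8 cell types. Genes named from a pathway list are up to 3 rises and 3 falls per comparison among called genes, and in the added comparison they were chosen after their values were seen, as were uncalled genes given for contrast. Genes named as most like Ccnd1 are the 5 with the highest r. Alternatives changed the background step, normalization, filter, probe rule, dye term, arrays included and source of the ratios. The series text gives 11 untreated females, while the labels used here give 10. Annotation is on mm8 and promoter sequences on GRCm38.p6.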

Additional observations from a re-analysis of the deposited data

Results flagged for a closer look

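The Adeno-Cux2 response of the cyclin E genes in males differed between day 5 and day 3 by the test of the difference itself. For Ccne1 the day 5 ratio was −0.30 and the day 3 ratio 0.53, a difference of −0.831 ± 0.10 (limma, adjusted p = 0.00574), and the call held in 17 of 20 settings. For Ccne2 the day 5 ratio was −0.43 and the day 3 ratio 0.63, a difference of −1.06 ± 0.10 (adjusted p = 0.00291), and the call held in 19 of 20 settings. Both arrays of day 5 were below 0 and both arrays of day 3 above 0 for each gene. The 2 days lie on different slides, and slide and day cannot be told apart.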

How the results depend on the processing

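Of the member probes, 2 were called in the untreated comparison, and this fell to 1 with median centring, without background subtraction, with its own 2 arrays only, and with either the scanner software's ratios or the series matrix values. In males at day 5 the count of 6 became 3 with 1 probe per gene and 10 with its own 2 arrays only, where all probes moved from 16.8% called to 18.8% and 26.3%. In females at day 5 the count of 7 became 4 with 1 probe per gene, and in males at day 3 the count of 12 became 6 (19.1% and 44% of all probes called). The 4 calls in the difference of males at day 5 minus day 3 became 2 with 1 probe per gene (12.9%). Fewer probes are tested with 1 probe per gene, and the cause of the other moves was not tested. Leaving out 1 array at a time gave 1 to 2 calls in the untreated comparison, 1 to 6 in males at day 5, 5 to 8 in females, 6 to 12 in males at day 3 (6 without replicate 2 of that comparison), 0 to 5 in the male difference (0 without the second male day 5 array), 0 in the female minus male difference, and 4 to 5 in the added comparison of Adeno-CMV with untreated males. No called value of a gene's brightest probe changed sign under the alternatives run with the labels as given. Uncalled values near 0 did change sign, as for the brightest Cdk6 probe in the untreated comparison (0.04, range −0.39 to 0.47). With the female ratios turned, an alternative chosen after seeing the data, the female minus male count of 0 became 10 of 16 (27.8% of all probes). Replicate numbers mark dye orientation. Deviations of same-numbered arrays correlated from −0.07 to 0.30, so the numbers were not taken to pair samples. Without the replicate block (the dye term) 2, 5, 5, 12, 0 and 4 member probes were called in the untreated, male day 5, female day 5, male day 3, female minus male and male day 5 minus day 3 comparisons, and 4 in the added one. Over all probes at day 3 in males, 7613 were higher and 6696 lower, against 8793 and 3906 with median centring. The number of arrays limits the precision, and the dimmest Cdk6 probe was above background in 13 of 16 channels.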
